A study of Mus musculus with 10 samples.

Results

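One array of the series carried RNA from mouse embryonic fibroblasts (MEFs) harvested on day 9 from below a culture of acute lymphoblastic leukaemia (ALL) cells treated with the solvent DMSO, and it is described here against the 3 arrays of MEFs kept with DMSO alone. It was taken by its label, as 1 of 10 arrays in all. The fibroblasts were wild type in every group and had been irradiated with 1000 rad so that they no longer divided. Per the labels they were fed medium with 10 ng/ml murine IL-3, while the study's methods give a lower IL-3 concentration for the medium of the ALL line. The ALL cells were the 8093 line, a B-lineage leukaemia from a Bcr/Abl transgenic mouse that the labels call preB and the study's methods pro-B, and they lay on a Transwell membrane with 0.4 µm pores. The other groups were MEFs with 16 nM nilotinib, an inhibitor of the Abl kinase (3 arrays), and MEFs below ALL cells under 16 nM nilotinib (3 arrays). The groups are written MEFs + ALL + DMSO, MEFs + DMSO, MEFs + nilotinib and MEFs + ALL + nilotinib. The labels give a membrane only for the groups with ALL cells, so effects of the membrane and of ALL cells cannot be told apart. The arrays of a group came from separate dishes of MEFs, so the p-values measure the spread between dishes, and MEFs + ALL + DMSO had no replicate: it was assumed to vary as the other 3 groups did. Per the study's methods other dishes of MEFs + ALL + DMSO had been set aside because ALL cells contaminated them, and per the labels the fibroblasts of all dishes had been looked at for remaining ALL cells before RNA was isolated.

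B lymphocytes are made in bone marrow in steps that can be told apart by their transcripts. Early in the lineage the transcription factors Ebf1 and Pax5 switch on the pre-B-cell receptor, in which the surrogate light chains Igll1 and Vpreb1 stand in for an antibody light chain and Cd79a and Cd79b carry the signal, while Rag1, Rag2 and Dntt recombine the antibody genes. Marrow stromal cells support this stage with adhesion and with factors such as Cxcl12 and Il7, and ALL cells on a fibroblast layer use the same kind of support. Fibroblasts do not make the pre-B receptor, so its transcripts mark lymphoblast RNA in a fibroblast sample.

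The 4 markers of the lymphoblasts stood apart in this array from all 9 others. Signals are the deposited log2 values after robust multi-array averaging (RMA), 1 for each set of probes, and they are compared between arrays but not between genes. Igll1, the invariant part of the surrogate light chain, had a log2 signal of 11.08 against 6.81, 6.91 and 6.99 in MEFs + DMSO, 6.64, 6.33 and 6.81 in MEFs + nilotinib and 6.45, 6.77 and 6.64 in MEFs + ALL + nilotinib. Vpreb1, its partner chain, had 9.39 against 6.33, 6.27 and 6.59 in MEFs + DMSO and 6.16 to 6.59 over the 9 other arrays. Mzb1, a chaperone of the endoplasmic reticulum in B cells, had 9.87 against 6.34 to 6.80, and Coro1a, an actin-binding protein of leukocytes, had 10.52 against 7.06 to 7.47. In each case the array lay above the highest of the 9 others, and the MEFs + ALL + nilotinib arrays overlapped those of MEFs without ALL cells. Summed on the linear scale, the 4 probesets came to 5240 in this array, 432 to 473 in MEFs + DMSO, 388 to 444 in MEFs + nilotinib and 387 to 440 in MEFs + ALL + nilotinib, and none was at 0 in any array. Fibroblast transcripts were present as well: Col1a1, a chain of type I collagen, had 12.79 and Thy1, a surface protein of stromal cells, 12.20 in this array. The summed signal of 18 genes of fibroblast identity was 75572 here and 86190 to 87686 in MEFs + DMSO. The array therefore held transcripts of both cell types, and in such a bulk sample fewer cells of a type and less RNA per cell cannot be told apart.

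The start regions of 4 genes of the receptor are shown because they encode chains of the complex: the transcripts of Igll1, Vpreb1 and Cd79a separated this array from the others, and Vpreb2, for which the difference was small and its call unstable, is the near-identical copy of Vpreb1. They run from 250 bases before to 50 after the annotated start, 5′ to 3′ on the gene's strand, from RefSeq on build GRCm38.p6. Capitals mark matches, on either strand, to 4 short motifs known from B-lineage promoters: CCCNNGGG, the core bound by EBF1, the E boxes CAGCTG and CAGGTG, bound by E proteins such as that of Tcf3, and GAGGAA, a purine-rich core bound by Ets factors such as Spi1. Igll1 lies on the minus strand at chr16:16863936-16864235, Vpreb1 on the minus strand at chr16:16869206-16869505, Vpreb2 on the plus strand at chr16:17980315-17980614 and Cd79a on the plus strand at chr7:24897247-24897546.
Igll1: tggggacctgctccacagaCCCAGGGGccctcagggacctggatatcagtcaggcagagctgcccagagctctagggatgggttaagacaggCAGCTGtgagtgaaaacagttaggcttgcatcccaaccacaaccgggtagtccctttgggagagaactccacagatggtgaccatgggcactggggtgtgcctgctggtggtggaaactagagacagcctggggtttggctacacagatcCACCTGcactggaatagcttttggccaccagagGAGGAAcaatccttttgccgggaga
Vpreb1: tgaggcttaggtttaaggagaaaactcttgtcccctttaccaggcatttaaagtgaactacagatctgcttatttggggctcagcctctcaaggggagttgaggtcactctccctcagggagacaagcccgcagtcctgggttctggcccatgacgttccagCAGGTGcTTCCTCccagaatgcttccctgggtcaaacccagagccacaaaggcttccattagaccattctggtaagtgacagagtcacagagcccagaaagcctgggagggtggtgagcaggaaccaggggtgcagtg
Vpreb2: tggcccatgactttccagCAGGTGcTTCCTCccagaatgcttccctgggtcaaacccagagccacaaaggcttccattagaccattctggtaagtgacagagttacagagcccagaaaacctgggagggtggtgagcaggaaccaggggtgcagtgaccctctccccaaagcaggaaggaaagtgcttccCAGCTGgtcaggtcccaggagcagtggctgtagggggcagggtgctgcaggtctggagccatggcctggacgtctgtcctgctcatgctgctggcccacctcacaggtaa
Cd79a: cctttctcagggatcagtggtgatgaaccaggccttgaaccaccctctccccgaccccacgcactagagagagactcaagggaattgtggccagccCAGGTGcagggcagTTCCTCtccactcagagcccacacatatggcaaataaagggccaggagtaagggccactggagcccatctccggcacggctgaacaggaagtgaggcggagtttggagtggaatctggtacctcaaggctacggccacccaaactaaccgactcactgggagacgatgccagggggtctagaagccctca

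Each of the 4 windows held CAGGTG and GAGGAA, while CCCNNGGG was found in that of Igll1 and CAGCTG in those of Igll1 and Vpreb2. Among 32817 start windows of this length, 13.7% held CCCNNGGG, 16.3% CAGCTG, 20.2% CAGGTG and 28.3% GAGGAA. The windows of Vpreb1 and Vpreb2 shared a run of 91 identical bases and, laid over each other without gaps with an offset of 144 bases, were alike at 153 of 156 bases, so the motif pair CAGGTGcTTCCTC stands in both. Vpreb1 and Vpreb2 are near-identical copies, and how far their probesets share signal was not tested. No match overlaps another. The matches are letters in a sequence and say nothing about binding. 

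Against MEFs + DMSO, 3651 of 35557 probesets (10.3%) passed an adjusted p of 0.05 in limma's moderated test, 2373 of them higher and 1278 lower in MEFs + ALL + DMSO. Counted as 19938 genes, each by its brightest probeset, 1651 rose (8.28%) and 887 fell (4.45%), and the median over all genes was -0.07 on the log2 scale. Each count of rises or falls in a gene list below is to be set beside these shares. The smallest adjusted p was 8.97e-07. Without MEFs + DMSO replicate 2 the count of probesets was 2137 and without replicate 3 it was 2190. In MEFs + ALL + nilotinib against MEFs + nilotinib 66 probesets passed (0.186%), 53 higher and 13 lower, which were 48 genes (0.241%). This comparison shares no array with the first. Both take their spread from the same fit, however, so their calls are not independent. Nilotinib without ALL cells left no probeset past the test in limma against MEFs + DMSO, with 3985 at an unadjusted p under 0.05.

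Both comparisons were used to sort the genes of this array. A gene was called shared where it passed the test in the same direction in both, larger under DMSO where it was not shared but the difference between the 2 ALL effects passed in the same direction, and undecided otherwise. Of the 1651 genes that rose, 30 were shared, 913 were larger under DMSO and 708 were undecided. Of the 887 that fell, 9 were shared, 72 were larger under DMSO and 806 were undecided. That was 55.3% of the rises and 8.12% of the falls with an ALL effect larger under DMSO, and over all genes the difference of the effects passed above 0 for 4.60% and below 0 for 0.386%. The difference holds the same contrast that chose the rises and falls, so nothing is read from these shares. Of all genes that rose, 65.4% were above 0 in the second comparison, beside 47.6% of all genes, and of all that fell 78.9% were below 0. Set directly against MEFs + ALL + nilotinib, 1019 genes were higher in MEFs + ALL + DMSO (5.11%) and 155 lower.

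**Figure D1:**
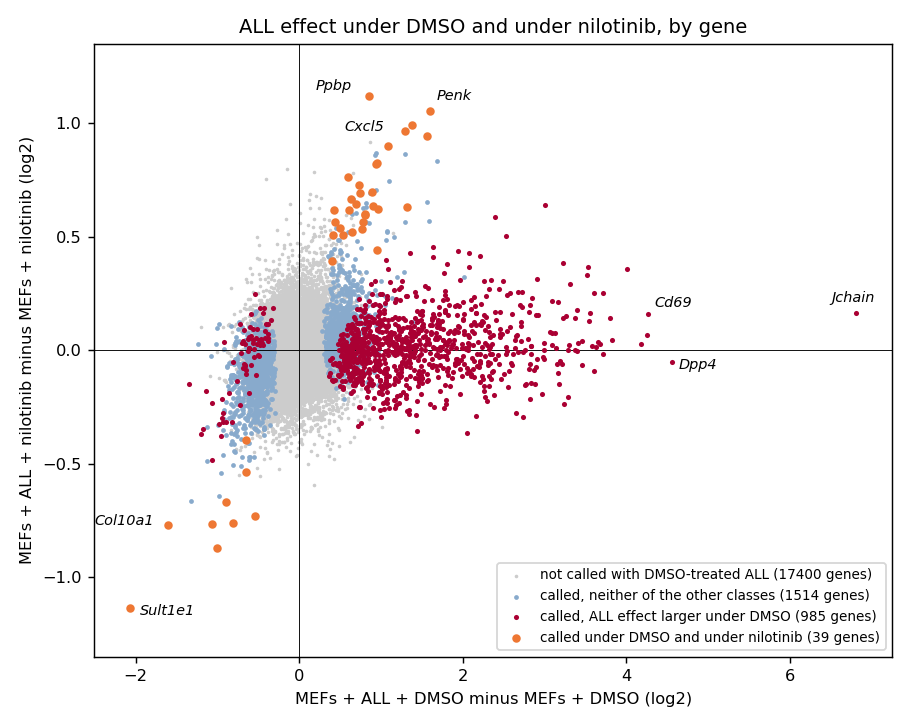
Each point is a gene, with the log2 difference of MEFs + ALL + DMSO from MEFs + DMSO on the horizontal axis and that of MEFs + ALL + nilotinib from MEFs + nilotinib on the vertical axis. The 985 genes whose ALL effect was larger under DMSO spread along the horizontal axis up to Jchain at 6.81 and scatter about 0 on the vertical one, while the 39 shared genes lie along a diagonal from Sult1e1 to Penk. The plotted differences themselves set the classes, so nothing is read from where each class lies.

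The pre-B receptor and its signalling proteins rose together. Of 15 genes of this list that were measured, 12 rose, none fell and 3 did not pass, and the median difference was 1.52 against -0.0027 with nilotinib-treated ALL cells. Igll1 was 4.18 ± 0.19 (SE) higher on the log2 scale than in MEFs + DMSO, or 18.1-fold (adjusted p = 3.86e-06), and Vpreb1 was 2.99 ± 0.16 higher, or 7.95-fold (adjusted p = 9.50e-06). Cd79a, a signalling chain of the receptor, had 8.19 against 5.15, 5.42 and 5.63 in MEFs + DMSO, a difference of 2.80 ± 0.19 (adjusted p = 3.46e-05). Its partner Cd79b had 8.86 against 6.23, 6.02 and 6.36, a difference of 2.66 ± 0.19 (adjusted p = 5.14e-05). For both chains this array lay above all 9 others, as it did for 12 of the 15 genes. Vpreb3, a related chain, rose by 2.48, and Vpreb2 by 0.81 with an adjusted p of 0.0461 that was lost when single arrays were left out.

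The kinases that carry the receptor's signal were part of the rise. Blk, a Src-family kinase of B cells, had 9.73 against 6.08, 6.19 and 6.10 in MEFs + DMSO, a difference of 3.61 ± 0.19 (adjusted p = 7.85e-06). Btk rose by 2.05, Plcg2, the phospholipase it activates, by 1.52, and Syk, the kinase that binds Cd79a, by 1.22. Ighm, the heavy chain of the receptor, and Blnk, the adaptor downstream of Syk, did not pass. Ighm had 6.56 against 6.78, 6.79 and 7.02, and Blnk had 6.09 against 6.23, 5.94 and 6.04. For both, this array lay among or below those of MEFs without ALL cells.

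Genes of antibody gene recombination split. Dntt, which adds bases at the joints and is a marker of early lymphoblasts, had 7.39 against 5.24, 4.73 and 5.16 in MEFs + DMSO, a difference of 2.34 ± 0.24 (adjusted p = 4.21e-04). Rag1, which cuts at the joints together with Rag2, had 7.10 against 5.73, 6.08 and 5.94, a difference of 1.18 ± 0.21 (adjusted p = 0.0093). Rag2 had 3.86 against 3.88, 3.81 and 3.89 (adjusted p = 0.995), in a dim range far below the array medians of 6.94 to 7.01, and did not stand apart. Of the 9 genes of the list 3 rose, the third being Xrcc6, an end-joining protein of all cells, by 0.95.

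Among 21 transcription factors of the B and lymphoid lineages 16 rose and none fell, with a median of 1.18 against -0.01 with nilotinib-treated ALL cells. Myb, required for early B and other blood progenitors, had 10.49 against 6.31, 5.98 and 6.42 in MEFs + DMSO and was 19-fold higher (4.25 ± 0.15, adjusted p = 1.70e-06). Pou2af1, an octamer coactivator of B cells, rose by 2.73, Ikzf1, the lymphoid factor Ikaros, by 2.45, and Mef2c by 2.29. Pax5, which fixes B-cell identity, had 8.38 against 6.40, 6.15 and 6.45, a difference of 2.05 ± 0.16 (adjusted p = 9.11e-05). Ebf1 was bright in fibroblasts too: it had 10.15 against 9.10, 9.06 and 9.07 in MEFs + DMSO and 9.22, 9.10 and 9.29 in MEFs + ALL + nilotinib, and its rise over MEFs + DMSO was 1.07. Spi1, which encodes PU.1, rose by 1.18 and Irf4 by 1.28, while Ikzf3 of the later lineage had 6.24 against 5.99 to 6.04 and did not pass.

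**Figure D2:**
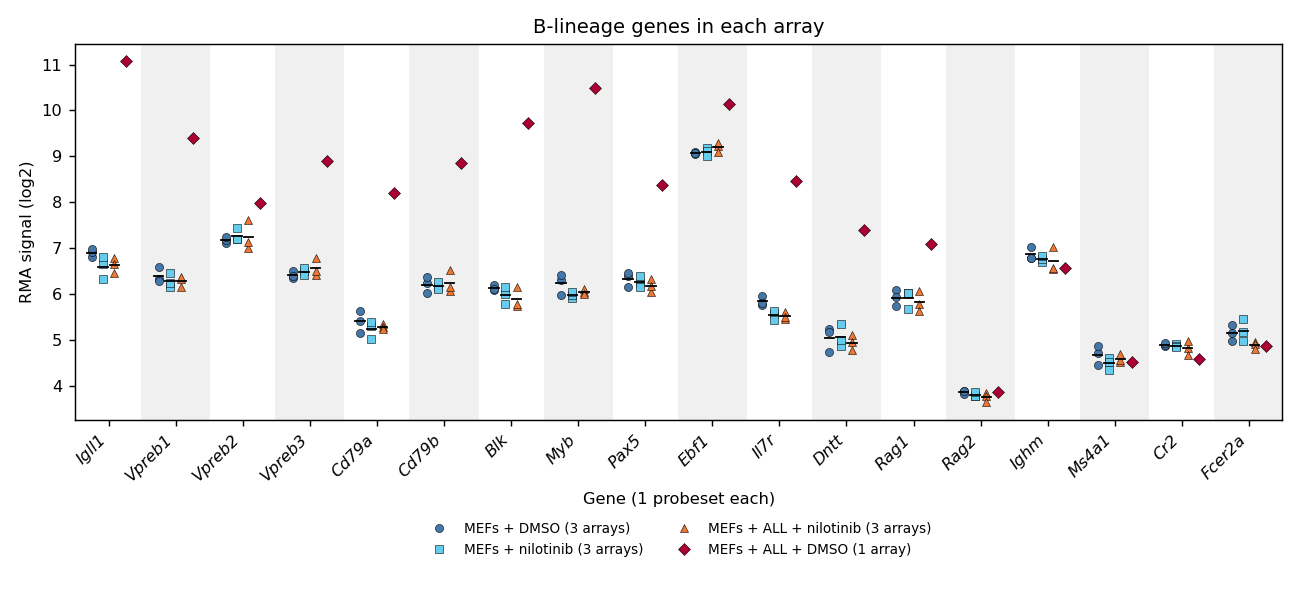
Log2 signals of 18 B-lineage genes are shown for each array, with lines at the means of the groups of 3. The single MEFs + ALL + DMSO array lies above the 9 others for the genes from Igll1 to Rag1, least clearly for Vpreb2, and among or below them for Rag2, Ighm, Ms4a1, Cr2 and Fcer2a.

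Surface proteins of early B-lineage cells rose, and 3 markers of mature B cells did not pass. Of 16 measured, 9 rose and none fell, with a median of 1.47. Cd93, found on early B-lineage cells, had 10.72 against 7.26, 7.09 and 7.15 in MEFs + DMSO, a difference of 3.55 ± 0.12 (adjusted p = 1.48e-06). Bst1, a marker of early B cells on marrow stroma, rose by 2.91, Il7r, the receptor for the growth factor Il7, by 2.62, Ly6d by 2.14 and Flt3, a cytokine receptor of progenitors, by 1.72. The markers of mature B cells did not pass: Ms4a1, which encodes CD20, had 4.52 against 4.71, 4.86 and 4.45, Cr2, which encodes CD21, had 4.59 against 4.87, 4.88 and 4.93, and Fcer2a, which encodes CD23, had 4.87 against 5.14, 4.97 and 5.32. For these 3 genes this array was within or below the range of MEFs + DMSO. All 3 were in a dim range, far below the array medians of 6.94 to 7.01, and other members of the list did not pass either.

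Of 8 MHC class II genes, which present antigen, 2 rose, beside the 8.28% of all genes that rose. Cd74, the invariant chain, had 8.68 against 5.81, 5.85 and 5.77 in MEFs + DMSO, a difference of 2.86 ± 0.13 (adjusted p = 4.46e-06). H2-Ab1, a beta chain, rose by 2.07 (adjusted p = 5.71e-04), while its partner H2-Aa had 5.07 against 4.76 to 5.05 and the class II transactivator Ciita 5.96 against 6.14 to 6.33, neither past the test. Genes of antibody secretion were split likewise, with 3 of 10 higher, beside the same 8.28%. Jchain, which joins antibody units, showed the largest measured rise: it had 11.72 against 4.97, 4.55 and 5.21 in MEFs + DMSO and 4.52, 4.51 and 4.52 in MEFs + ALL + nilotinib, a difference of 6.81 ± 0.20, or 112-fold (adjusted p = 8.97e-07). The 9 other arrays held it in a dim range, far below the array medians of 6.94 to 7.01, so the size of the fold and its rank are uncertain. Mzb1 was 3.18 ± 0.14 higher (adjusted p = 3.64e-06). Prdm1, the factor that drives plasma cell formation, had 5.27 against 5.31 to 5.42, and Sdc1, a plasma cell surface marker that fibroblasts also express, had 10.09 against 9.95 to 10.03. Neither passed.

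Proteins common to leukocytes rose alongside. In the list of leukocyte cytoskeleton genes 16 of 20 rose and none fell, with a median of 1.72 against 0.01 with nilotinib-treated ALL cells. Coro1a was 3.30 ± 0.15 higher (adjusted p = 4.46e-06), Parvg, which links integrins to actin, 3.40, Arhgap15, a regulator of Rac, 3.00, the GTPase Rac2 2.91 and its activator Dock2 2.60. In leukocyte signalling 15 of 21 rose and none fell, with a median of 1.33. Inpp5d, the inositol phosphatase SHIP, rose by 2.82, Cytip, which regulates adhesion, by 2.59, and Cd48, a leukocyte adhesion protein, by 2.33. Csf2rb, the signalling chain of the IL-3 receptor, had 8.60 against 7.51, 7.28 and 7.03 in MEFs + DMSO, a difference of 1.33 ± 0.19 (adjusted p = 0.0032).

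Receptors that hold leukaemia cells to stroma were among the rises, 5 of 10 genes of adhesion and homing, beside 8.28% of all genes. Cxcr4, the receptor for the stromal chemokine Cxcl12, had 10.94 against 8.16, 8.25 and 8.19 in MEFs + DMSO and 7.83, 7.91 and 7.88 in MEFs + ALL + nilotinib, a difference of 2.74 ± 0.11 from MEFs + DMSO (adjusted p = 2.65e-06). Selplg, the ligand of P-selectin, rose by 2.40 and Itgal, an integrin chain of leukocytes, by 1.50. The list had a median of 0.45.

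The Bcr/Abl kinase signals through STAT5. Of 18 genes of that pathway and of ERK, 7 rose and 2 fell, beside 8.28% and 4.45% of all genes. The median was 0.02. Known STAT5 targets were found among the rises, the falls and the 9 genes that did not pass. Socs2, which restrains cytokine receptors, had 11.53 against 8.62, 8.68 and 8.77 in MEFs + DMSO and 9.31, 9.07 and 9.23 in MEFs + ALL + nilotinib, a difference of 2.84 ± 0.13 from MEFs + DMSO (adjusted p = 3.67e-06). The kinase Pim1 rose by 1.76, the growth regulator Myc by 1.31 and Cish, another STAT5 target, by 0.81. Egr1, an early gene induced through ERK, fell by 0.86 and Bcl2l1, a survival gene that is itself a known target of STAT5, fell by 0.78. Dusp6, a phosphatase that ERK induces, had 10.32 against 10.33 to 10.52 and did not pass.

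The largest rises beyond these groups were of mixed function. Dpp4, a surface peptidase, had 10.40 here and 5.34, 5.60 and 5.62 in MEFs + ALL + nilotinib, and its difference was 4.56 ± 0.16 from MEFs + DMSO (adjusted p = 1.48e-06). Cd69, an early activation marker of lymphocytes, had 9.29 against 5.07, 4.99 and 5.03, a difference of 4.26 ± 0.16 (adjusted p = 1.88e-06). Prkch, a protein kinase C of haematopoietic cells, rose by 3.79, Wdfy4 by 3.65, Tspan13, a tetraspanin, by 3.51 and Cecr2, a chromatin remodelling protein, by 3.82. Others are better known from other tissues: Car2, a carbonic anhydrase, with 3.71, and Gria2, a glutamate receptor subunit, with 3.67. The uncharacterised gene 4930520O04Rik rose by 3.58. All 20 genes with the largest rises had an ALL effect that was larger under DMSO. The difference of the effects holds the same contrast that chose these genes, so nothing is read from that count.

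Genes of cell division were raised nearly throughout. Of 27 genes of DNA replication 25 rose and none fell, with a median of 1.59 against 0.14 with nilotinib-treated ALL cells, and of 25 genes of mitosis 24 rose and none fell, with medians of 2.36 and 0.01. All 25 mitosis genes were higher in this array than in the 9 others. Kif11, the motor that separates spindle poles, had 9.94 against 6.06, 5.90 and 5.86 in MEFs + DMSO and 6.54, 6.48 and 6.15 in MEFs + ALL + nilotinib, or 16-fold the level in MEFs + DMSO (adjusted p = 2.87e-06). The topoisomerase Top2a rose by 3.71, the motor Kif15 by 3.63, cyclin A2 (Ccna2) by 3.46, the checkpoint kinase Bub1 by 3.40 and the proliferation marker Mki67 by 3.26. Of the replication genes, the helicase subunit Mcm5 rose by 2.73, the primase Prim1 by 2.57 and the polymerase Pole by 2.46. Chromatin proteins made in S phase rose too: Uhrf1, which maintains DNA methylation, by 3.60, Cdca7 by 3.54 and the linker histone H1f5 by 3.53. In the list of nucleolus genes and Myc targets 8 of 20 rose, with a median of 0.37, led by Tfrc, the transferrin receptor, with 2.16 and Gnl3, a nucleolar GTPase, with 0.82. That count ran from 3 to 12 over the alternative settings, with 0 lower in each.

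Few markers of other blood cells passed the test, beside the 8.28% of all genes that rose. Of 15 macrophage markers 1 rose, Fcer1g, by 0.41 (adjusted p = 0.0411). Lyz2, the lysozyme of macrophages, was bright in every array, with 11.86 here and 11.85 to 12.13 in the 9 others, and the summed signal of the list was 8400 here and 7980 to 8951 in MEFs + DMSO. Of 13 T and NK cell markers Gzma rose by 0.71 and Cd3e fell by 0.64, and of 9 mast cell and basophil markers Cpa3 rose by 0.95. None of 11 granulocyte markers and none of 6 erythroid and megakaryocyte markers passed. The medians of these 5 lists lay between -0.29 and 0.01, beside -0.07 over all genes.

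**Figure D3:**
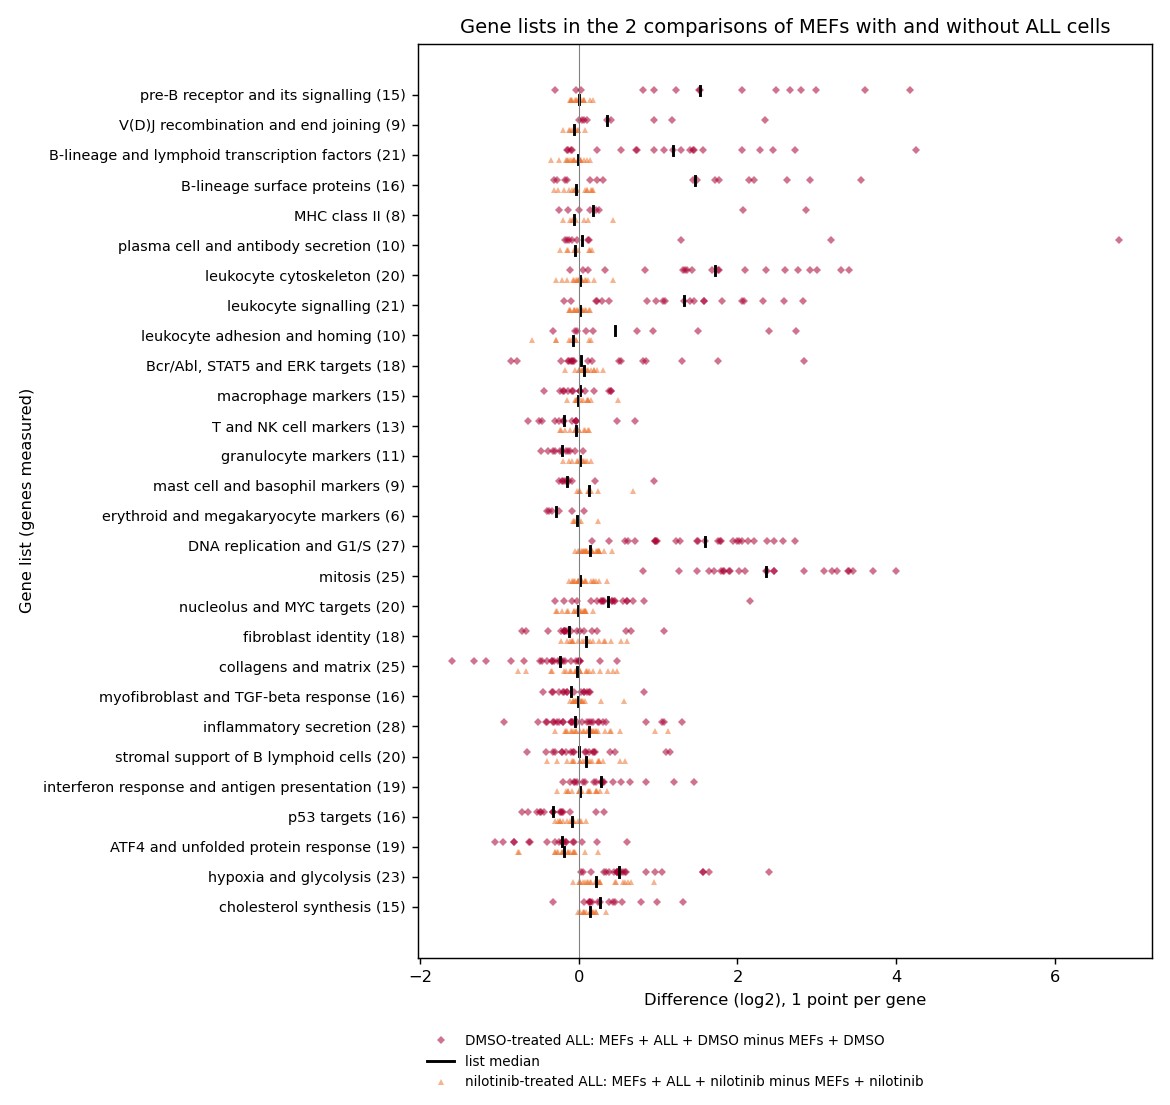
Each point is a gene of the list named at the left, placed by its log2 difference in the comparison under DMSO (diamonds) and under nilotinib (triangles), and black ticks mark the medians. The medians under DMSO lie furthest to the right for mitosis (2.36), leukocyte cytoskeleton (1.72) and DNA replication (1.59), while under nilotinib every list has its median between -0.18 and 0.21.

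Most fibroblast genes did not pass. Of 18 genes of fibroblast identity 3 rose and 1 fell, with a median of -0.12, and their summed signal was 75572 here, 86190 to 87686 in MEFs + DMSO, 81716 to 87025 in MEFs + nilotinib and 83733 to 84625 in MEFs + ALL + nilotinib. This sum was thus lowest in the array that held lymphoblast transcripts, and the part of those transcripts in the falls below was not tested. Col1a2, a chain of type I collagen, had 12.57 against 13.25, 13.24 and 13.22 in MEFs + DMSO but 13.13, 12.62 and 12.83 in MEFs + nilotinib, and its fall of 0.66 (adjusted p = 0.0419) set this array just below the lowest of the latter. Col1a1 differed by -0.72 and did not pass (adjusted p = 0.0863). S100a4, a calcium-binding protein of motile cells, rose by 1.07, the proteoglycan Lum by 0.65 and Thy1 by 0.59. S100a4 had 9.90 here, 8.80 to 8.90 in MEFs + DMSO, 9.12 to 9.43 in MEFs + nilotinib and 9.67 to 9.82 in MEFs + ALL + nilotinib, and Thy1 had 12.20, 11.56 to 11.64, 11.86 to 11.92 and 12.07 to 12.45. Both were thus higher in the arrays with ALL cells than in their own controls, and the second comparison did not pass for either.

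In collagens and other matrix genes 9 of 25 fell and 1 rose, with a median of -0.23, beside the 4.45% of all genes that fell. The 9 were 5 without each single MEFs + DMSO array and 15 in limma with a trend and robust estimate. Col10a1, the collagen of hypertrophic cartilage, had 8.74 against 10.38, 10.33 and 10.32 in MEFs + DMSO, 10.36, 10.56 and 10.60 in MEFs + nilotinib and 9.62, 9.81 and 9.78 in MEFs + ALL + nilotinib. It fell by 1.60 under DMSO (adjusted p = 5.84e-05) and by 0.77 under nilotinib (adjusted p = 0.0179), and the fall was larger under DMSO. Eln, which encodes elastin, had 9.10 against 10.32, 10.47 and 10.47 in MEFs + DMSO and 9.60, 9.75 and 9.53 in MEFs + ALL + nilotinib. It fell by 1.32 under DMSO (adjusted p = 0.001), and under nilotinib the difference was -0.66 with an adjusted p of 0.0759. Col11a1 fell by 1.17 and Col5a2 by 0.86, with effects that were larger under DMSO, and Col6a2 rose by 0.49. Of 16 myofibroblast and TGF-beta response genes 1 rose, beside the 8.28% of all genes that rose. It was the intermediate filament gene Des, with 10.17 against 9.45, 9.40 and 9.20, and in MEFs + ALL + nilotinib it had 10.33, 10.22 and 10.21.

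Shared genes were those that also passed, in the same direction, with nilotinib-treated ALL cells. The 4 lymphoblast markers summed to 387 to 440 in those arrays and 388 to 444 in their controls, and which cell type carried each shared change was not tested. Of the 66 probesets of the nilotinib comparison 53 were called in the same direction in this array, which was 80.3% of that list and 1.45% of the 3651 probesets, and 1 was called in the opposite direction. The 53 were 44 higher and 9 lower, and both comparisons take their spread from the same fit. This count rested on few arrays: it was 9 to 28, and that of the nilotinib comparison 12 to 36, when any 1 of the 9 replicated arrays was left out, and in a fit of MEFs + nilotinib and MEFs + ALL + nilotinib alone 4 probesets passed and none of the 24 shared genes named here did. Leaving out each array in turn kept the nilotinib call of 4 of the 24, Penk, Cxcl5, Rarres1 and Chac1.

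Among the shared genes that rose, secreted peptides and chemokines led. Most of the satellite-like probesets described further below were shared too. These 8 rose by up to 2.67 under DMSO and 4.29 under nilotinib. Penk, which encodes the opioid precursor proenkephalin, had 10.59 against 9.05, 8.98 and 8.94 in MEFs + DMSO, 9.15, 8.99 and 9.02 in MEFs + nilotinib and 10.20, 10.01 and 10.10 in MEFs + ALL + nilotinib. It rose by 1.60 ± 0.11 under DMSO (adjusted p = 3.11e-05) and by 1.05 ± 0.07 under nilotinib (adjusted p = 0.0032), and the groups with and without ALL cells did not overlap. Cxcl5, a chemokine that draws neutrophils, had 6.74 against 5.44, 5.49 and 5.40 in MEFs + DMSO and 6.32, 6.50 and 6.34 in MEFs + ALL + nilotinib. It rose by 1.30 ± 0.11 (adjusted p = 1.22e-04) and 0.97 ± 0.08 (adjusted p = 0.0049). Ppbp, a related chemokine, had 7.88 here and 8.29, 7.76 and 8.19 in MEFs + ALL + nilotinib, against 6.86 to 7.18 in the 6 arrays without ALL cells, with rises of 0.85 and 1.12. Serping1, the inhibitor of complement C1, rose by 1.38 under DMSO and 0.99 under nilotinib, and Ptx3, a pattern recognition protein, by 0.73 and 0.73.

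Transporters, enzymes and matrix-associated proteins made up much of the rest. Slc16a3, a lactate exporter, had 10.35 against 8.78, 8.78 and 8.79 in MEFs + DMSO and 10.03, 9.63 and 9.45 in MEFs + ALL + nilotinib, with rises of 1.57 and 0.94. Pfkl, a phosphofructokinase of glycolysis, rose by 0.96 and 0.62. Dio3, which inactivates thyroid hormone, rose by 1.08 and 0.90, and Slc14a1, a urea transporter, by 1.31 and 0.63. The growth factor binding protein Igfbp4 rose by 0.77 and 0.53, the matrix protein Prelp by 0.78 and 0.57, and Rarres1, a retinoid-responsive gene, by 0.74 and 0.69. Stmn2, a tubulin-binding protein of neurons, rose by 0.94 and 0.82, Nsg1, an endosomal protein of neurons, by 0.89 and 0.70, Pcbd1 by 0.95 and 0.44 and the uncharacterised AW551984 by 0.95 and 0.83. The difference between the 2 comparisons passed the test for Slc14a1 and Pcbd1 and for none of the other shared genes that rose.

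The shared falls were 9 genes. Sult1e1, an enzyme that inactivates oestrogen, had 4.28 against 6.46, 6.40 and 6.18 in MEFs + DMSO, 6.46, 6.68 and 6.45 in MEFs + nilotinib and 5.45, 5.08 and 5.66 in MEFs + ALL + nilotinib. It fell by 2.07 under DMSO (adjusted p = 4.52e-04), the largest measured fall, and by 1.14 under nilotinib (adjusted p = 0.0382), with no overlap between groups with and without ALL cells. Its signal in this array was in the dim range, so the size of the fall is uncertain. Chac1, which breaks down glutathione and is induced by the stress factor Atf4, had 7.78 against 8.80, 8.81 and 8.90 and 8.01, 7.94 and 7.88 in MEFs + ALL + nilotinib, falls of 1.06 and 0.76. Trib3, another target of Atf4, fell by 0.81 and 0.76. Chodl, a lectin, fell by 1.00 and 0.87, Prss35, a secreted protease-like protein, by 0.90 and 0.67, the Notch ligand Jag1 by 0.65 and 0.40 and the growth factor Fgf18 by 0.65 and 0.54. The others were Col10a1, described above, and Palmd. Among all 39 shared genes the effect was larger under DMSO for Slc14a1, Pcbd1 and Col10a1.

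**Figure D4:**
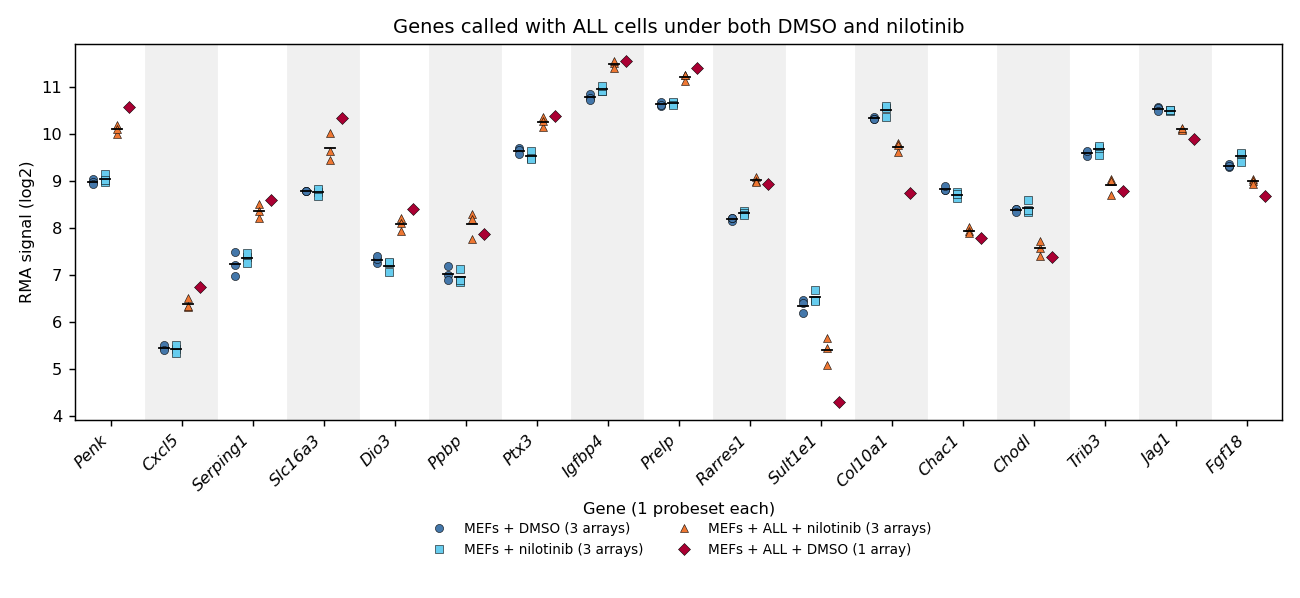
Log2 signals of 17 shared genes are shown for each array, with lines at the means of the groups of 3. From Penk to Rarres1 the MEFs + ALL + DMSO array and the 3 MEFs + ALL + nilotinib arrays lie above the 6 arrays without ALL cells, and from Sult1e1 to Fgf18 they lie below them. The genes were chosen for passing in both comparisons, so nothing is read from this separation.

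Genes of hypoxia and glycolysis rose with DMSO-treated ALL cells, and 2 of them with nilotinib-treated ones as well. Of 23 measured, 16 rose in this array and none fell, beside the 8.28% of all genes that rose. Over the alternative settings 10 to 18 rose. The median was 0.51, and under nilotinib it was 0.21 with 2 past the test. Egln3, a prolyl hydroxylase that low oxygen induces, had 9.26 against 6.90, 6.85 and 6.85 in MEFs + DMSO and 7.94, 7.18 and 7.26 in MEFs + ALL + nilotinib, a rise of 2.39 ± 0.26 (adjusted p = 5.84e-04). Pdk1, which keeps pyruvate out of mitochondria, rose by 1.64, and the effects on both genes were larger under DMSO. Bnip3, a mitophagy protein, had 11.02 against 9.53, 9.52 and 9.32 and 10.64, 9.99 and 10.08 in MEFs + ALL + nilotinib, with a rise of 1.56. For each of the 3 genes the MEFs + ALL + nilotinib arrays lay between those of MEFs + DMSO and this one, and replicate 1 was the highest of them. Leukaemia cells carry out glycolysis too, and the share of each cell type in these rises was not tested.

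Cholesterol synthesis genes rose in 7 of 15 cases with none lower (4 to 7 over the alternative settings), beside 8.28% of all genes. Their median was 0.27 against 0.15 under nilotinib. Idi1, an isomerase of the pathway, rose by 1.32, Stard4, a cholesterol carrier, by 0.98 and Dhcr7, its last reductase, by 0.79. Of 19 genes of the interferon response and antigen presentation 5 rose and none fell, beside the same 8.28%. Their median was 0.28, and over the alternative settings 3 to 5 rose. The rises were strongest in the immunoproteasome, Psmb8 with 7.83 against 6.41, 6.45 and 6.27 and a difference of 1.45 ± 0.16 (adjusted p = 6.55e-04), Psmb9 with 1.21, and in the peptide transporter Tap1 with 0.65. All 3 had effects that were larger under DMSO.

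Of 28 genes of inflammatory secretion 21 did not pass, 4 rose and 3 fell, with a median of -0.05, beside the 8.28% of all genes that rose and the 4.45% that fell. Without single MEFs + DMSO arrays 2 to 3 rose and 1 fell. Tnf had 7.88 against 6.97, 6.68 and 6.86 in MEFs + DMSO and 6.93, 6.97 and 6.67 in MEFs + ALL + nilotinib, a rise of 1.04 ± 0.15 (adjusted p = 0.0037). The cytokine Il6 had 7.84 against 6.83, 6.83 and 6.62, a rise of 1.08 (adjusted p = 0.0408), but MEFs + nilotinib held 6.98, 7.48 and 7.29 and MEFs + ALL + nilotinib 8.19, 7.51 and 7.61. Lif, which keeps progenitors undifferentiated, fell by 0.94 and its relative Il11 by 0.51. Among 20 factors of stromal support for B lymphoid cells 2 rose and 3 fell, with a median of 0.01, beside the same shares of all genes. Without any 1 of the MEFs + DMSO arrays 1 rose and 1 fell. Tnfsf11, which encodes RANKL, had 9.57 against 8.57, 8.36 and 8.49 and 8.34, 8.43 and 8.44 in MEFs + ALL + nilotinib, a rise of 1.10 ± 0.11 (adjusted p = 4.08e-04), and the growth factor Fgf7 rose by 0.46. Tslp, a cytokine of early B cells, had 6.64 against 5.64, 5.50 and 5.32 and 6.62, 5.73 and 6.64 in MEFs + ALL + nilotinib, and did not pass (adjusted p = 0.0568). The effects on Tnf and Tnfsf11 were larger under DMSO.

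Of 16 targets of p53, which irradiation activates, 6 fell and none rose (3 to 9 falls over the alternative settings), beside the 4.45% of all genes that fell, with a median of -0.32 against -0.08 under nilotinib. The death receptor Fas had 7.81 against 8.58, 8.48 and 8.51 in MEFs + DMSO, a fall of 0.71, with 8.43, 8.16 and 8.02 in MEFs + nilotinib and 8.16, 8.01 and 8.21 in MEFs + ALL + nilotinib. Mdm2, which degrades p53, had 10.30 against 10.97, 10.94 and 10.88, a fall of 0.63 (adjusted p = 0.0098), and 10.61, 10.45 and 10.67 in MEFs + ALL + nilotinib. Of 19 genes of Atf4 and the unfolded protein response 4 fell and 1 rose (3 to 9 falls over the alternative settings), beside the same 4.45%, with a median of -0.22. Beside Chac1 and Trib3 these were Slc7a11, the cystine importer, with a fall of 0.95 that was larger under DMSO, and Sesn2 with a fall of 0.81, while Shmt2, a mitochondrial enzyme of serine metabolism, rose by 0.61.

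The remaining large falls were single genes. Dync1h1, the heavy chain of dynein, had 9.59 against 10.84, 10.86 and 10.77 in MEFs + DMSO and 10.69, 9.73 and 10.05 in MEFs + nilotinib, and its fall of 1.24 had an adjusted p of 0.0417. Gxylt2, which adds xylose to Notch, fell by 1.20, the transcription factor Egr2 by 1.14 and the olfactory receptor gene Olfr624, in the dim range, by 1.35, all with effects larger under DMSO. Sema3e, a guidance protein, fell by 1.12 and Tnfsf18, a ligand of the TNF family, by 1.12.

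The study named a satellite-like sequence cassini. By real-time RT/PCR it reports more cassini RNA in MEFs below nilotinib-treated than below DMSO-treated ALL cells. It also reports cassini RNA in ALL cells, and this array held lymphoblast transcripts. For related satellite-like loci the study lists 8 probesets. They were also higher in this array than in MEFs + DMSO, by 0.94 to 2.67, with 7 past the test. In MEFs + ALL + nilotinib against MEFs + nilotinib they were higher by 2.03 to 4.29, all 8 past the test, so the 7 were among the shared probesets. This array lay 0.41 to 1.03 below MEFs + ALL + nilotinib, with none of the 8 differences past the test.

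Over the 134 named genes that passed against MEFs + DMSO, 117 still passed when any 1 of the 9 other arrays was left out. The 17 that were lost were Vpreb2, Bcl2l1, Fcer1g, Gzma, Ppbp, Dync1h1, Sema3e, Tnfsf18, Col1a2, Il11, Sesn2, Fas, Thy1, Col6a2, Il6, Fgf7 and Lum, with adjusted p-values of 0.0213 to 0.0497 with all arrays. Each of the 17 was lost without at least 1 of the MEFs + DMSO arrays, and their largest adjusted p without 1 array ran from 0.0548 for Fas to 0.115 for Lum. The first principal component held 30.8% of the variance, and on it this array had a score of -66.9 against -9.13 to 22.6 for the 9 others. It correlated at 0.975 to 0.985 with the others, which correlated at 0.985 to 0.995 among themselves.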

How the data were processed

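RNA of 10 dishes of irradiated MEFs was hybridised to Affymetrix Mouse Gene 1.0 ST arrays after TRIzol extraction and biotin labelling, and the authors processed the scans in Partek. The authors' deposited table held log2 RMA values for 35557 probesets with no missing value. The labels and methods name no settings for background or normalization.

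Probesets were named from the platform annotation, in which 21789 had 1 symbol, 1621 several and 12147 none, and 21698 of those with 1 symbol matched RefSeq by gene ID. Each of 19938 genes was read from its probeset with the highest mean over the arrays. The log2 values were fitted in limma 3.58.1 (R 4.3.3) with 4 group means and a shared spread, and the two-sided p-values of all probesets were adjusted together (Benjamini-Hochberg, threshold 0.05). The fit was tested on simulated data. No pair of arrays held identical values. Alternatives were limma with trend and robust estimates, quantile normalization, centring on array medians, leaving out the dimmest 1 in 3 probesets, fits of 2 groups, each replicate left out and the replicate number as a block.

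Named genes were the markers, the 20 largest rises and 10 largest falls outside the range of MEFs + DMSO, the 10 largest shared rises and 5 largest shared falls, and 2 to 4 members of each gene list by size with further members by role. Genes without a symbol or a well-known function could be passed over. The comparison, lists and genes were chosen with earlier results of these data known. Promoter windows came from a RefSeq table on GRCm38.p6. The number of arrays limits the precision, and the spread within MEFs + ALL + DMSO was not measured.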

Additional observations from a re-analysis of the deposited data

Results flagged for a closer look

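The effect of ALL cells on the fibroblast samples differed between DMSO and nilotinib for 1406 probesets, by limma's test of the difference between the 2 effects (MEFs + ALL + DMSO minus MEFs + DMSO, less MEFs + ALL + nilotinib minus MEFs + nilotinib). Of the 149 genes named in the report, 88 passed that test. Of all genes, 4.60% passed it above 0 and 0.386% below 0. Many named genes were chosen by their difference under DMSO, which this test holds too, so nothing is read from the 88. The difference on the log2 scale follows by group for each of them, with adjusted p-values of at most 0.0464. For the pre-B receptor and its signalling proteins it was 4.15 for Igll1, 2.99 for Vpreb1, 2.41 for Vpreb3, 2.74 for Cd79a, 2.59 for Cd79b, 3.70 for Blk, 2.15 for Btk, 1.08 for Syk and 1.61 for Plcg2. For V(D)J recombination and end joining it came to 2.47 for Dntt, 1.27 for Rag1 and 0.96 for Xrcc6. Among genes of B-lineage and lymphoid transcription factors it was 4.18 for Myb, 2.74 for Pou2af1, 2.51 for Ikzf1, 2.14 for Mef2c, 2.13 for Pax5, 0.97 for Ebf1, 1.18 for Spi1 and 1.34 for Irf4. In the list of B-lineage surface proteins it was 3.39 for Cd93, 2.76 for Bst1, 2.64 for Il7r, 2.07 for Ly6d and 1.90 for Flt3. For leukocyte cytoskeleton it came to 3.28 for Coro1a, 3.37 for Parvg, 2.96 for Arhgap15, 2.95 for Rac2 and 2.67 for Dock2. Among genes of leukocyte signalling it was 2.88 for Inpp5d, 2.65 for Cytip, 2.31 for Cd48 and 1.31 for Csf2rb. In the list of leukocyte adhesion and homing it was 3.03 for Cxcr4, 2.44 for Selplg and 1.62 for Itgal. For Bcr/Abl, STAT5 and ERK targets it came to 2.61 for Socs2, 1.71 for Pim1, 1.30 for Myc and 0.69 for Cish. Among genes of mitosis it was 3.64 for Kif11, 3.46 for Top2a, 3.42 for Ccna2, 3.40 for Bub1 and 3.11 for Mki67. In the list of DNA replication and G1/S it was 2.47 for Mcm5, 2.47 for Prim1 and 2.29 for Pole. For interferon response and antigen presentation it came to 1.33 for Psmb8, 1.20 for Psmb9 and 0.64 for Tap1. Genes of the remaining lists had differences of 2.95 for Cd74, 1.64 for H2-Ab1, 6.65 for Jchain, 3.32 for Mzb1, 2.44 for Tfrc, 0.88 for Gnl3, 1.13 for Tnf, 1.04 for Tnfsf11, 1.81 for Egln3, 1.19 for Pdk1, 0.79 for Stard4, 0.69 for Dhcr7 and 0.67 for Shmt2. Outside the lists the differences above 0 were 4.61 for Dpp4, 4.10 for Cd69, 3.77 for Cecr2, 3.65 for Prkch, 3.73 for Car2, 3.65 for Gria2, 3.61 for Wdfy4, 3.62 for Kif15, 3.35 for Uhrf1, 3.41 for Cdca7, 3.16 for H1f5, 3.18 for Tspan13, 0.68 for Slc14a1, 0.50 for Pcbd1 and 3.56 for 4930520O04Rik. Differences below 0, from larger falls under DMSO, were -0.83 for Col10a1, -0.83 for Gxylt2, -0.83 for Col11a1, -0.96 for Egr2, -0.67 for Col5a2, -0.64 for Lif, -0.74 for Slc7a11 and -1.20 for Olfr624. All rest on the single MEFs + ALL + DMSO array, and what part the number of lymphoblasts in that dish had in them was not tested.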

How the results depend on the processing

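The single MEFs + ALL + DMSO array could not be left out, so none of the alternatives tests its own spread. Against MEFs + DMSO, the 3651 called probesets were 2538 to 4357 under other settings and 2137 to 4968 with 1 of the 9 other arrays left out, lowest without MEFs + DMSO replicate 2 (2137) and replicate 3 (2190). The 1543 called against MEFs + ALL + nilotinib were 535 in a fit of these groups alone and 1178 to 1756 otherwise, and the 1406 with an ALL effect that differed between DMSO and nilotinib were 1008 to 1932. The nilotinib comparison was the least stable: its 66 probesets were 117 with trend and robust estimates, 126 without the dimmest 1 in 3 probesets, 78 after quantile normalization, 60 after centring, 4 in a fit of its own groups alone and 12 to 36 with 1 array left out. The 53 called in both were 90 with trend and robust estimates, 90 without the dimmest probesets, 55 after quantile normalization, 45 after centring and 9 to 28 with 1 array left out. Without the dimmest probesets fewer probesets were tested, and for the other settings the cause was not tested.

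Deviations of samples with the same replicate number correlated at -0.29 to 0.24 over 9 pairs, 2 of them over 0.1. Pairs with unlike numbers ran from -0.26 to 0.39. No pairing by number was seen, but so few pairs cannot settle whether the dishes were paired. With the replicate number as a random block the counts were 3609 against MEFs + DMSO, 1543 against MEFs + ALL + nilotinib, 39 in the nilotinib comparison, 34 in both and 1352 for the difference, and as a fixed block in the nilotinib comparison alone the count was 6.

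Over 2598 recomputed values of named genes, 2270 kept their direction and side of the threshold, 315 kept their direction and lost the call, 6 gained it and 7 changed sign. Those 7 were genes that did not pass in the first place: Ighm by another probeset (0.14), Blnk without MEFs + DMSO replicate 2 (-0.0398), Prdm1 after quantile normalization (0.0166) and Rag2 after quantile normalization (0.0504), after centring (0.0115) and without MEFs + DMSO replicate 1 (0.0076) and replicate 3 (0.0141). With 1 array left out Blnk ran from -0.0398 to 0.1027 and Rag2 from -0.0253 to 0.0141. The median over all probesets was -0.07 and ran from -0.07 to -0.03 under the alternatives.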
